A study of Mus musculus with 12 samples.

Results

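Primitive erythroid genes were followed here through embryos carrying an Eftud2 mutation, at a time when the first red cells fill with hemoglobin. The 9 members are the embryonic globins Hbb-y, Hbb-bh1 and Hba-x, the alpha globin Hba-a1, the heme synthesis enzyme gene Alas2, the transcription factors Klf1 and Gata1, the anion exchanger gene Slc4a1 and the erythropoietin receptor gene Epor. They were found by their symbols in a table of raw counts, and all 9 are among its 24421 rows. Of these, 8 passed the filter on low counts that left 14810 genes for testing, and each of the 8 had at least 23 counts in every library. Hba-a1, with 1 count in all, was not tested.

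RNA was sequenced from C57Bl/6 mouse embryos, with 3 libraries in each of 4 groups. The controls were heterozygous (Eftud2+/-) and the mutants homozygous (Eftud2-/-), each at the developmental stages E9.0 and E9.5 (embryonic days), and no library came from embryos with 2 intact copies of Eftud2. The mutation is said to be restricted to neural crest cells, which blood cells do not come from, but no Cre line, somite number or number of embryos per library is given. The labels name the sample in 3 ways, as neural crest cells, as cranial nerve ganglia and as heads. Nothing says that the replicates were separate litters or embryos, so p-values measure only the spread between these libraries.

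Libraries held 13914543 to 31172708 counts. Markers of neural crest, of ganglion neurons and of neural progenitors were present in each of them, with no listed gene at 0 and summed levels of 148 to 302, 98.1 to 190 and 690 to 872 CPM (counts scaled to a common library size). Eftud2 itself was measured at 276 to 302 CPM in heterozygous and 232 to 236 CPM in homozygous E9.0 libraries, and at 248 to 265 and 221 to 226 CPM at E9.5. The ribosomal RNA precursor row Rn45s made up 37.4% of all counts in replicate 1 of the E9.0 controls, a library that also stood apart in its scaling factor (0.664, against 0.924 to 1.11 in the other 11 libraries). The Rn45s share also differed with stage, at 6.05% to 37.4% in the 6 E9.0 libraries and 4.398% to 5.90% in the 6 E9.5 libraries.

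Primitive erythroid cells arise in the yolk sac and enter the circulation with the onset of the heartbeat, still nucleated, and mature in the blood as a cohort. They make hemoglobin from zeta and alpha chains and from the beta-like chains of Hbb-bh1 and Hbb-y, and in the mouse the balance of these beta-like chains is known to move from Hbb-bh1 to Hbb-y as the cells mature. Gata1 binds GATA sites and Klf1 binds CACCC boxes at globin and heme genes, and Epor carries the erythropoietin signal for growth and survival of the precursors.

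Sequences before the start sites are shown for 4 members of different roles, a globin, a heme enzyme, a transcription factor and a receptor. These 4 were picked among members whose windows hold a GATA motif, so its presence in them is not a result. The sequences were read from RefSeq's promoter table (GRCm38.p6), which matched 7 of the 9 members, all but Hbb-bh1 and Slc4a1. Each stretch ends before the first base of both the RefSeq and the GENCODE M21 gene model. Capitals mark matches on either strand to 4 motifs. The GATA motif was searched as AGATAA or as TGATAA. The CACCC box was searched as CCNCNCCC and the CCAAT box by those letters. The TATA motif was searched as TATAAA or as ATAAAA.
Hbb-y (chr7:103853217-103853457, minus strand): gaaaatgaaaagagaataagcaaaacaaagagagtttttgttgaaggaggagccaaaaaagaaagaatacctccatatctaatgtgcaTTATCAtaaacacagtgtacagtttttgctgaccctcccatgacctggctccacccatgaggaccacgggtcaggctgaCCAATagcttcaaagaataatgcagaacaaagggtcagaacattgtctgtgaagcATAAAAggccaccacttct
Alas2 (chrX:150547167-150547374, plus strand): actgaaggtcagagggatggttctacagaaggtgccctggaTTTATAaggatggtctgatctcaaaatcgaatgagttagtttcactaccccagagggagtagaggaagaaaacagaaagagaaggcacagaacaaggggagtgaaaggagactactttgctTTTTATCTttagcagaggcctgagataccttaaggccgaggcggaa
Klf1 (chr8:84901732-84901927, plus strand): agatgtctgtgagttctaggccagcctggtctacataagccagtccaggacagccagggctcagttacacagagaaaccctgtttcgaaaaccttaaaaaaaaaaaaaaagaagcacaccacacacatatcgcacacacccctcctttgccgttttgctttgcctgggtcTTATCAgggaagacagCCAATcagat
Epor (chr9:21963577-21963826, minus strand): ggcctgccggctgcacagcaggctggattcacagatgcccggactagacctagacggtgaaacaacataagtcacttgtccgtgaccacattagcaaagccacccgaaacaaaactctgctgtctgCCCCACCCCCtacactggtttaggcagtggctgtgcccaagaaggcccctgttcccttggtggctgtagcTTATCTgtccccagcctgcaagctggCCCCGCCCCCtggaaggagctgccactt

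The GATA motif was found in 6 of the 7 matched members within the 300 bases from 250 before to 50 after the RefSeq start. Counted from that start, its first base lies at -162 in Hbb-y, -108 in Hba-x, -183 in Hba-a1, -86 in Alas2, -80 in Klf1 and -54 in Epor. The letters were not in the Gata1 window. Over all 32851 promoters of this length in the table, 18.6% hold the motif. The CACCC box, as the pattern CCNCNCCC, was in 4 of the 7 (Hba-x, Alas2, Gata1 and Epor) and in 49.5% of all promoters. The bare letters CACCC also stand in the printed Hbb-y and Klf1 stretches, where that pattern has no match. Lack of a match to it is therefore not lack of a CACCC sequence. CCAAT was in 3 (Hbb-y, Hba-a1 and Klf1) and in 37.4% of all, and TATA was in 3 (Hbb-y, Hba-x and Alas2) and in 24.7% of all. In Alas2 a TATA match on the minus strand overlaps the GATA match, and its CACCC matches lie past the end of the printed stretch. These matches describe the letters only.

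The members lie at 7 places in the genome (GENCODE M21, GRCm38, the build that the submitters' processing notes call mm10). Hbb-bh1 (chr7:103841637-103843164) and Hbb-y (chr7:103851749-103853216) lie on the minus strand of the beta-globin cluster, with Hbb-bh0 between them. Hba-x (chr11:32276400-32278116) and Hba-a1 (chr11:32283511-32284465) lie on the plus strand of the alpha-globin cluster. Alas2 (chrX:150547375-150570638, plus strand) overlaps Apex2 and Mir3620 on the other strand, and whether the counting used strand is not given in the sources used here. The remaining members, Klf1 (chr8:84901928-84905291, plus), Gata1 (chrX:7959260-7978071, minus), Slc4a1 (chr11:102348824-102366203, minus) and Epor (chr9:21958897-21963506, minus), overlap no other annotated gene, and neither do the globins.

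Hbb-y, the epsilon-like globin, had the largest rise from E9.0 to E9.5 among the 8 tested members in both genotypes. At E9.0 replicates 1, 2 and 3 of the heterozygous group stood at 197, 166 and 259 CPM, and those of the homozygous group at 131, 111 and 273 CPM. By E9.5 the heterozygous libraries had reached 2126, 1961 and 1652 CPM, with 1681, 1151 and 2147 CPM in homozygous embryos. The ranges of the stages were far apart, while those of the genotypes overlapped at each stage. The rise was 9.21-fold in heterozygous embryos (log2 difference 3.20, SE 0.40, edgeR adjusted p = 0.0003885) and 9.67-fold in homozygous embryos (3.27, SE 0.40, adjusted p = 0.0003439).

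Hbb-bh1, the beta-like globin that the cohort makes first, was the member with the highest count in all 6 E9.0 libraries. It stood at 429, 347 and 671 CPM in heterozygous and at 364, 332 and 637 CPM in homozygous E9.0 libraries. At E9.5 it reached 2303, 2326 and 1673 CPM in heterozygous and 1601, 1200.3 and 2067 CPM in homozygous libraries. Replicate 3 was the highest of the 3 libraries in both E9.0 groups and in the homozygous E9.5 group, and the lowest in the heterozygous E9.5 group. The rise was 4.35-fold in heterozygous (log2 difference 2.12, SE 0.36, adjusted p = 0.00212) and 3.65-fold in homozygous embryos (1.87, SE 0.36, adjusted p = 0.003905).

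Hba-x, which encodes the zeta chain, was the third globin with substantial counts. Its levels were 203, 116 and 183 CPM in heterozygous and 109, 80.4 and 233 CPM in homozygous libraries at E9.0. At E9.5 they were 680.2, 677 and 577 CPM in heterozygous and 547, 385 and 795 CPM in homozygous libraries. Every E9.5 library was above every E9.0 library, with a 3.86-fold rise in heterozygous (log2 difference 1.95, SE 0.44, adjusted p = 0.00892) and a 4.09-fold rise in homozygous embryos (2.03, SE 0.44, adjusted p = 0.00739). The homozygous call was lost with only the homozygous libraries in the fit (edgeR adjusted p = 0.056). Hbb-y, Hbb-bh1 and Hba-x together took 0.0550% to 0.107% of the counts of the E9.0 libraries and 0.303% to 0.568% of those at E9.5. Without Rn45s in the total, these shares were 0.0587% to 0.126% and 0.320% to 0.594%. Heterozygous E9.0 replicate 1, the lowest library with Rn45s counted, was then at 0.0879%.

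Alas2, the erythroid form of the enzyme that begins heme synthesis, followed the globins at a lower level. It was measured at 8.22, 7.35 and 13.5 CPM in heterozygous and 6.92, 6.42 and 13.98 CPM in homozygous E9.0 libraries. At E9.5 the levels were 47.6, 50.8 and 36.5 CPM in heterozygous and 38.9, 28.2 and 51.2 CPM in homozygous libraries, again clear of the E9.0 range. The rise was 4.56-fold (log2 difference 2.19, SE 0.35, adjusted p = 0.00131) in heterozygous and 4.33-fold (2.12, SE 0.36, adjusted p = 0.00189) in homozygous embryos.

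The transcription factors had low levels and rose less. Klf1, an activator of globin and red cell genes, was at 4.18, 2.25 and 3.74 CPM in heterozygous and 2.33, 1.78 and 5.47 CPM in homozygous libraries at E9.0. At E9.5 its 3 heterozygous libraries were close together, at 10.3, 10.7 and 10.6 CPM, and its homozygous libraries were at 7.49, 5.90 and 10.2 CPM. Its log2 difference between the stages was 1.65 (SE 0.32, adjusted p = 0.0018) in heterozygous and 1.30 (SE 0.34, adjusted p = 0.0102) in homozygous embryos. With only the homozygous libraries in the fit, the homozygous call of Klf1 was lost (edgeR adjusted p = 0.0511). Gata1, the factor that erythroid differentiation depends on, was at 2.13, 2.20 and 3.14 CPM in heterozygous and 2.63, 1.49 and 4.32 CPM in homozygous E9.0 libraries. It rose to 7.90, 8.31 and 5.65 CPM in heterozygous and to 6.61, 5.28 and 8.70 CPM in homozygous E9.5 libraries (log2 difference 1.52, SE 0.30, adjusted p = 0.00137, and 1.30, SE 0.31, adjusted p = 0.00467).

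Slc4a1, the anion exchanger that anchors the membrane skeleton, was at 29.1, 20.6 and 40.4 CPM in heterozygous and 16.7, 15.1 and 42.2 CPM in homozygous E9.0 libraries. At E9.5 it was at 96.9, 108 and 89.4 CPM in heterozygous and 69.5, 47.0 and 106 CPM in homozygous libraries. The lowest homozygous E9.5 library was close to the highest E9.0 library. The log2 difference was 1.70 (SE 0.44, adjusted p = 0.0179) in heterozygous embryos, and the call was lost without heterozygous E9.0 replicate 1 (adjusted p = 0.0542) or replicate 2 (0.0624). In homozygous embryos it was 1.59 (SE 0.46, adjusted p = 0.027), and the call was lost without homozygous E9.0 replicate 1 (0.0848), E9.0 replicate 2 (0.0870) or E9.5 replicate 3 (0.0854). That call was also lost with only the homozygous libraries in the fit (edgeR adjusted p = 0.11).

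Epor rose least. Its levels at E9.0 were 2.28, 1.77 and 3.70 CPM in heterozygous and 1.73, 1.37 and 4.05 CPM in homozygous libraries, from 23 to 86 counts. At E9.5 they were 5.98, 6.43 and 5.97 CPM in heterozygous and 4.65, 3.22 and 7.54 CPM in homozygous libraries, so that homozygous E9.5 replicate 2 fell below homozygous E9.0 replicate 3. The log2 difference was 1.21 (SE 0.38, adjusted p = 0.0269) in heterozygous embryos. That call was kept when heterozygous E9.0 replicate 3 was left out and lost without any of the other 5 libraries, with adjusted p = 0.0957 and 0.0969 without E9.0 replicates 1 and 2 and 0.0582, 0.0663 and 0.0533 without E9.5 replicates 1, 2 and 3. It was also lost when genes of low count were not filtered out (0.0807). In homozygous embryos the difference of 1.11 (SE 0.41) did not pass by edgeR (adjusted p = 0.0527). It passed by DESeq2 (0.0108) and limma-voom (0.0380), with total counts only (0.0337), with a mean of at least 50 counts as the filter (0.0450), with dispersions that were not robust (0.0319), with a replicate block (0.00645), and without E9.0 replicate 3 (0.00705) or E9.5 replicate 2 (0.0170).

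**Figure D1:**
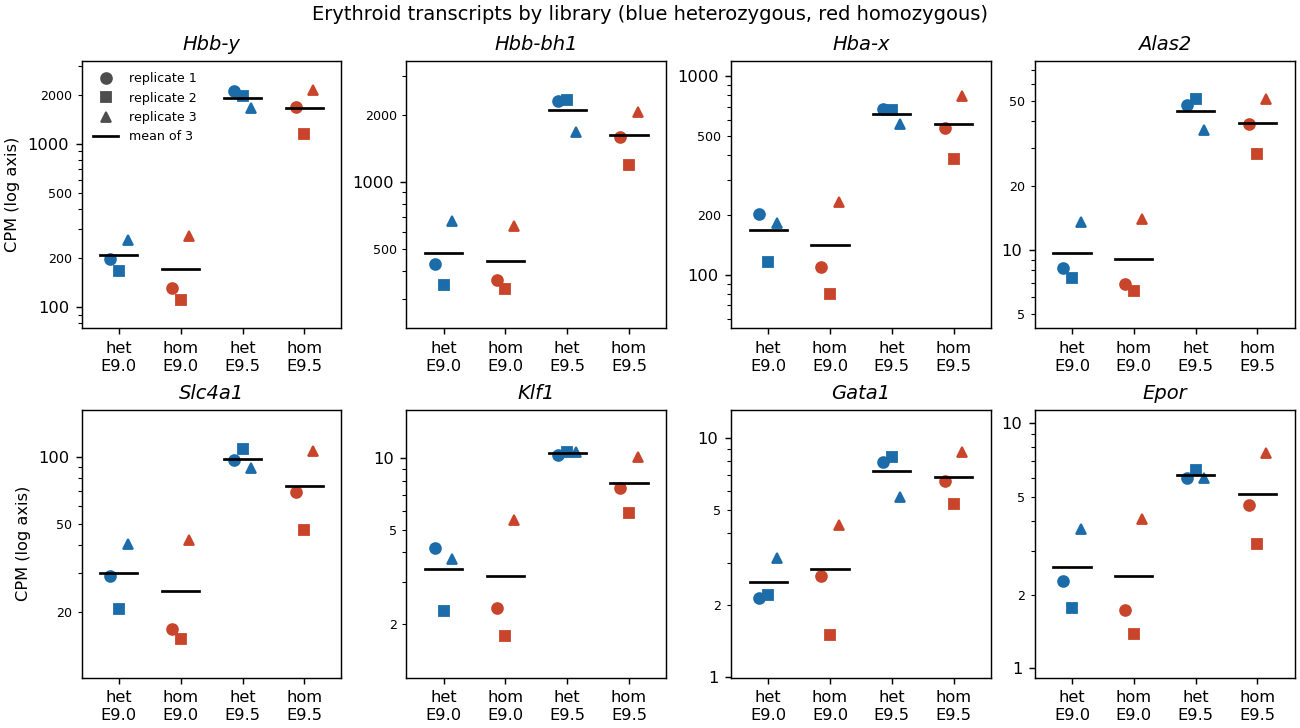
Level in CPM (log axis) of the 8 tested members in each of the 12 libraries, by genotype and stage; symbols mark replicate numbers and bars the mean of 3 libraries. The E9.5 libraries lie above the E9.0 libraries for each gene shown except Epor in homozygous embryos, and the genotypes overlap in every panel at both stages except Klf1 at E9.5.

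Counted together, 8 of the 8 tested members were called higher at E9.5 in heterozygous embryos, in a comparison that called 35.2% of all genes tested (19.2% higher), and 7 of 8 in homozygous embryos, where 35.4% of genes were called (19.6% higher). Their median log2 difference was 1.82 in heterozygous and 1.73 in homozygous embryos, beside 0.008 and 0.015 over all genes tested. The background of higher calls moved with the scaling, from 2840 of 5216 called genes to 6729 of 6984 with total counts only in heterozygous embryos, and from 2896 of 5238 to 2897 of 3326 in homozygous embryos. The libraries of both stages did not overlap for 8 of 8 members in heterozygous embryos (25.2% of all genes lay higher without overlap) and for 7 of 8 in homozygous embryos (26% of all genes). Bulk libraries cannot tell more erythroid cells in a sample from more RNA per cell. When each library was left out in turn, 6 to 8 members were called in either genotype, and with only the 6 homozygous libraries in the fit 4 members were called. DESeq2 and limma-voom called 8 of 8 in homozygous embryos. The Rn45s share moved with stage as well, without overlap (at most 5.90% at E9.5, at least 6.05% at E9.0). With globins and Rn45s left out of the library sizes, edgeR called 5220 genes for stage in heterozygous and 5265 in homozygous embryos. Beyond that change of scaling, the part of Rn45s in the difference was not tested.

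Other cell types changed between the stages as well. All 9 heart muscle markers were called higher at E9.5 in both genotypes, with a summed level of 73.2 to 377 CPM over the E9.0 libraries and 2155 to 3396 CPM at E9.5. Of 6 tested megakaryocyte and platelet markers, 5 were called higher in heterozygous and 3 in homozygous embryos, and the summed level of the list went from 7.96 to 12.6 CPM up to 18.5 to 26.4 CPM. Endothelial markers went the other way in heterozygous embryos, with 6 of 12 called lower and 0 higher (2 higher and 1 lower in homozygous embryos). Of 6 tested macrophage markers, 3 were called higher in heterozygous and 2 in homozygous embryos, with a summed level of no more than 9.20 CPM in any library. Neural crest markers fell, with 5 of 7 called lower in both genotypes. Of 8 ganglion neuron markers 5 were called higher in both genotypes, with 1 lower in heterozygous and 0 lower in homozygous embryos. Their summed level was 98.1 to 108 CPM over the E9.0 libraries and 154 to 190 CPM at E9.5. Yolk sac endoderm markers, with 1 of 6 called higher and 1 lower in heterozygous and 0 in homozygous embryos, summed to 39.6 CPM in heterozygous E9.5 replicate 1 and to 7.01 to 13.6 CPM in the other 11 libraries. The part of these tissues in the erythroid difference was not tested.

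Per kilobase of transcript, the order of the mean levels was the same in 3 groups. In homozygous E9.5 embryos the mean of Alas2 passed that of Slc4a1, and the mean of Gata1 that of Epor. Libraries varied in this, since homozygous E9.5 replicate 3 had Slc4a1 above Alas2 and Epor above Gata1. Gata1 was also above Epor in heterozygous E9.5 replicates 1 and 2. In heterozygous E9.0 libraries Hbb-bh1 led with 787 ± 275 CPM per kb (SD, n = 3), followed by Hbb-y at 328 ± 74.3 and Hba-x at 178 ± 48.7, and these neighbours did not overlap. Slc4a1 (6.14 ± 2.03), Alas2 (4.03 ± 1.38), Klf1 (2.22 ± 0.66), Epor (1.30 ± 0.50) and Gata1 (1.02 ± 0.23 CPM per kb) came after them. Among these neighbours the group ranges of Alas2 and Klf1 were apart and the others overlapped. Within each of these 3 libraries, however, Slc4a1 was above Alas2, Alas2 above Klf1 and Klf1 above Epor, while Epor and Gata1 changed order. At E9.5 Hbb-bh1 (3427 ± 605) and Hbb-y (3023 ± 380) had overlapping ranges in heterozygous embryos, as they did in homozygous embryos (2647 ± 707 and 2622 ± 787). Within libraries, Hbb-bh1 was above Hbb-y in all 3 heterozygous and in 1 of the 3 homozygous libraries. Hba-x remained well below both, at 687 ± 62.9 and 614 ± 220 CPM per kb.

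No member was called between the genotypes at either stage. At E9.0, 0 of 8 members were called between homozygous and heterozygous embryos by edgeR, where 0.587% of all genes were called. The log2 differences ran from -0.30 (Slc4a1) to 0.13 (Gata1), with a median of -0.14. None had an unadjusted p under 0.05, and DESeq2 and limma-voom also called 0. The 95% intervals were wide, from -1.12 to 0.58 for Hbb-y, -0.91 to 0.67 for Hbb-bh1 and -1.40 to 0.80 for Slc4a1. Directions were the same with RLE or upper-quartile factors. With total counts only, the median of all genes stood at 0.19, and Hbb-bh1 (0.036), Alas2 (0.051), Klf1 (0.10) and Epor (0.011) were above 0 and below that median. The count over all genes moved with single libraries, from 87 genes to 38 without homozygous replicate 3 and to 39 without heterozygous replicate 2. Of 7 neural crest markers 1 was called lower in homozygous embryos, with a summed level of 236 to 266 CPM against 286 to 302 CPM. All 12 endothelial differences were positive, with 0 called and a summed level of 361 to 374 CPM against 306 to 327 CPM. The part of these cells in the erythroid values at E9.0 was not tested.

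At E9.5, 0 of 8 members were called, against 1.89% of all genes (280 genes, and 168, 133 and 136 without homozygous replicates 1, 2 and 3 and 151 without heterozygous replicate 2), again with 0 at an unadjusted p under 0.05 and 0 by DESeq2 or limma-voom. All 8 differences were negative, from -0.43 (Klf1) to -0.10 (Gata1), with a median of -0.24 beside -0.003 over all genes. Homozygous replicate 3 was nevertheless the highest of the 6 E9.5 libraries for 5 members (Hbb-y, Hba-x, Alas2, Gata1 and Epor). Without homozygous replicate 2, the differences of Hbb-y, Hba-x, Alas2 and Gata1 were no longer negative (0.004, 0.06, 0.004 and 0.07). Klf1 was the member whose groups did not overlap: each homozygous library lay below each heterozygous one (edgeR adjusted p = 0.582, exact two-sided permutation p = 0.1, the smallest that 3 against 3 allows), a pattern that 9.47% of all genes showed in that direction. The 95% interval of the Klf1 difference was -1.04 to 0.18, and that of Hbb-y -1.04 to 0.63. Markers of other cells also differed between the genotypes at E9.5. Of 7 neural crest markers 5 were called lower in homozygous embryos (median -0.78), also by DESeq2 and limma-voom, with a summed level of 148 to 173 CPM against 161 to 188 CPM. Of 8 ganglion neuron markers 2 were called lower and 1 higher. Endothelial markers went the other way, with 8 of 12 called higher and a summed level of 353 to 403 CPM against 196 to 280 CPM. The part of these cells in the erythroid values was not tested.

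The difference of the genotype effect between the stages was called for 0 of 8 members, against 0.0675% of all genes (10 genes, and 1 to 16 when 1 library was left out, the lowest without homozygous E9.5 replicate 3 and the highest without heterozygous E9.5 replicate 2), with 0 at an unadjusted p under 0.05 and 0 by DESeq2 or limma-voom. It ran from -0.34 (Klf1) to 0.09 (Hba-x).

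**Figure D2:**
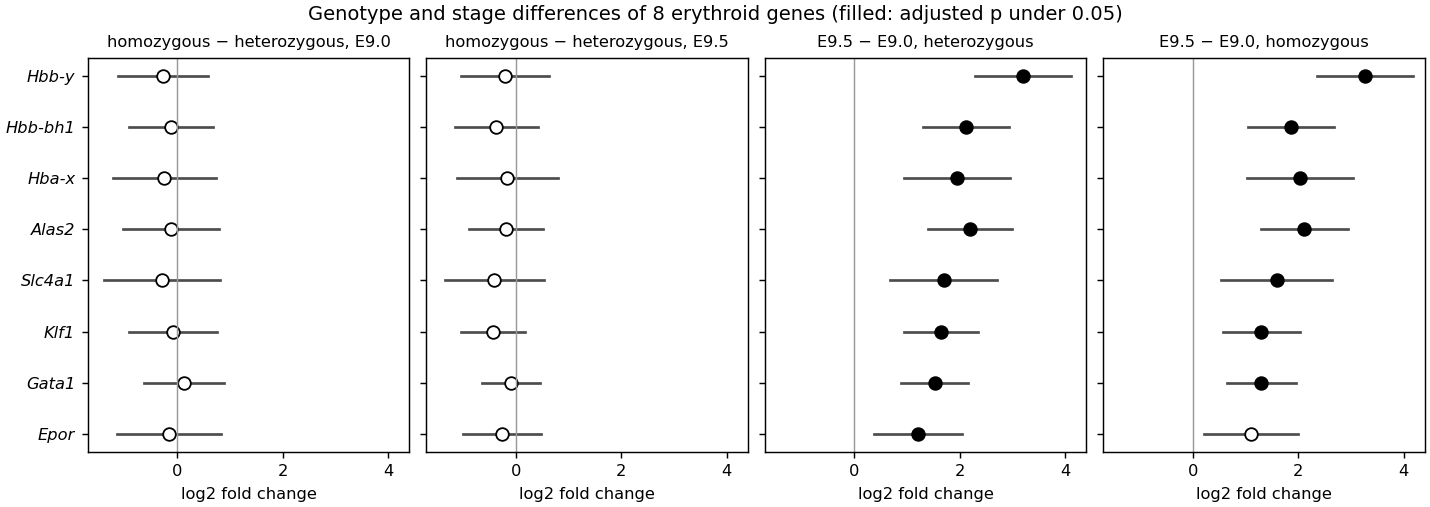
Log2 fold changes of the 8 tested members with 95% intervals for genotype at each stage and for stage in each genotype; filled points passed an adjusted p of 0.05. The genotype intervals all include 0, and the stage intervals all lie above 0, with Epor in homozygous embryos not called.

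Ratios of counts within a library were compared next, in which library size and scaling cancel. Of 12 planned tests, 10 could be run, since the ratio of Hba-x to Hba-a1 has no denominator, and exact permutation p-values within strata (400 arrangements, smallest p 0.005) were adjusted over the 10. The balance of the beta-like globins moved towards Hbb-y. Hbb-y made up 31.5%, 32.4% and 27.8% of the Hbb-y and Hbb-bh1 counts in heterozygous and 26.5%, 25.1% and 30.0% in homozygous E9.0 libraries. At E9.5 the share was 48.0%, 45.7% and 49.7% in heterozygous and 51.2%, 49.0% and 51.0% in homozygous libraries. Counting error on these shares was small, with 95% Wilson intervals of 24.1% to 26.0% for the lowest and 50.9% to 51.5% for the highest library, and it covers counting only.

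The Hbb-y to Hbb-bh1 ratio rose 2.38-fold from E9.0 to E9.5 (log2 difference 1.25, SE 0.081, exact permutation p = 0.005, adjusted p = 0.0167). It rose in both genotypes without overlap, by 1.06 in heterozygous and 1.45 in homozygous embryos, and stayed called whichever of the 12 libraries was left out. Genotype made no called difference to it (log2 difference -0.05, SE 0.081, adjusted p = 0.711): homozygous embryos were 0.24 lower at E9.0 and 0.15 higher at E9.5, with overlapping libraries at both stages.

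Other ratios moved less. The alpha-like to beta-like ratio has Hba-x and Hba-a1 as its numerator, to which Hba-a1 adds 1 count. It therefore follows Hba-x and says little of Hba-a1, whose low count is uncertain. This ratio fell by 0.46 (log2, SE 0.136, exact permutation p = 0.01, adjusted p = 0.025). Its libraries did not overlap in heterozygous embryos (-0.59) but did in homozygous embryos (-0.33). Alas2 rose by 2.19 and 2.12 (log2) in heterozygous and homozygous embryos, beside 2.12 and 1.87 for Hbb-bh1 and 3.20 and 3.27 for Hbb-y. Whether its rise differed from that of Hbb-bh1 was not tested. The ratio of Alas2 to the sum of these beta-like globins fell by 0.30 (SE 0.037, exact permutation p = 0.005, adjusted p = 0.0167). Epor rose less than Slc4a1, and their ratio fell by 0.47 (SE 0.051, exact permutation p = 0.005, adjusted p = 0.0167), with no overlap in either genotype. The Klf1 to Gata1 ratio showed no called difference between the stages (0.09, SE 0.19, adjusted p = 0.711).

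Between the genotypes, the Epor to Slc4a1 ratio was the one of the 5 that passed. It was 0.16 higher (log2, SE 0.051, 1.12-fold) in homozygous embryos (exact permutation p = 0.015, adjusted p = 0.03), with libraries that overlapped at E9.0 and not at E9.5. The call was kept in 7 of 12 fits that left out a library. It was lost without heterozygous E9.0 replicate 1 (adjusted p = 0.06) and, at an adjusted p of 0.05, without replicates 1 or 3 of the homozygous E9.0 group or replicates 2 or 3 of the homozygous E9.5 group. The adjusted p ranged from 0.0125 to 0.06 over these fits. The Alas2 to beta-like ratio was 0.08 higher in homozygous embryos (SE 0.037, adjusted p = 0.0917) and the Klf1 to Gata1 ratio 0.32 lower (SE 0.19, adjusted p = 0.164), neither passing the threshold. The first passed without homozygous E9.0 replicate 1 (adjusted p = 0.04) or heterozygous E9.5 replicate 2 (0.0417), and the second without heterozygous E9.0 replicate 2 (0.0417).

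**Figure D3:**
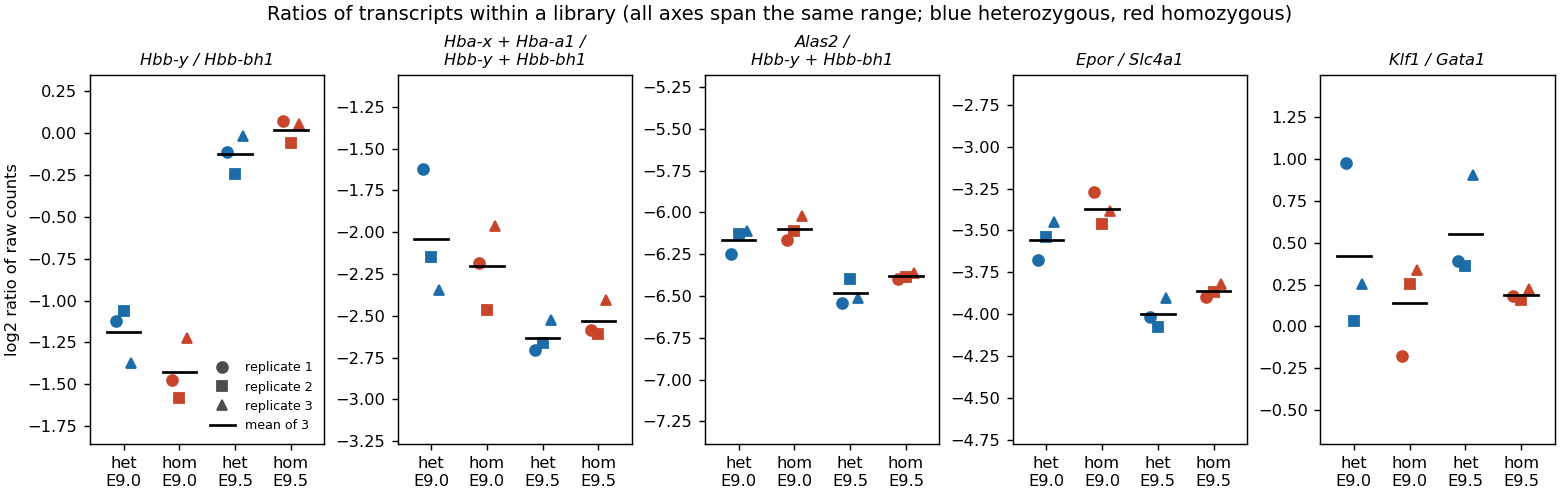
Log2 ratios of raw counts within each library for 5 pairs or sums of members; symbols mark replicate numbers, bars the mean of 3 libraries, and all axes span the same range. The Hbb-y to Hbb-bh1 ratio moves from between -1.58 and -1.06 at E9.0 to between -0.25 and 0.07 at E9.5, and the other ratios move by less.

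Adult-type globins were nearly without counts. Hba-a1 had 1 count in homozygous E9.5 replicate 1 and 0 in the other 11 libraries, and its near copy Hba-a2 had 1 count in heterozygous E9.5 replicate 1. The adult beta globins Hbb-bs and Hbb-bt, and the rows Hbb-b1 and Hbb-b2, were listed at 0 in every library. These zeros cannot be read as absence. Of the 50-base windows of the Hba-a1 transcript 72.3% also occur in Hba-a2, or 89.8% counted from the RefSeq start. The share of Hbb-bs windows that occur in Hbb-bt is lower, at 53.2%. The cause of the 0 counts in the adult beta globin rows was not tested. How reads that match several genes were treated is not given in the sources used here. The other 8 members shared 0 such windows with any other gene in the annotation.

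Among minor globins, Hbq1b, a theta globin, had 4 to 9 counts in heterozygous and 2 to 9 in homozygous E9.0 libraries. At E9.5 it had 56, 44 and 38 counts in heterozygous and 17, 15 and 21 in homozygous libraries, with no overlap. It rose with stage in heterozygous embryos (log2 difference 2.23, SE 0.37, adjusted p = 0.0002273) and not past the threshold in homozygous embryos (0.77, SE 0.43, adjusted p = 0.178). Its genotype difference at E9.5 was -1.27 (SE 0.29, edgeR adjusted p = 0.0363), but DESeq2 did not call it (adjusted p = 0.0575) and leaving out any of the 6 libraries ended the call (adjusted p from 0.0569 to 0.195), and the difference between the stages was not called (adjusted p = 0.515). Hbq1b shares 28.3% of its 50-base windows with Hbq1a, which had 0 to 3 counts, and is uncertain for that reason too. Hbb-bh2 had 2 to 19 counts, with 19, 14 and 8 in heterozygous and 4 in each homozygous library at E9.5 (log2 difference -1.63, SE 0.50, adjusted p = 0.124).

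Within a group the members deviated in the same direction in 7 of the 12 libraries. At E9.0 all 8 lay above their group mean in replicate 3 of either genotype and below it in replicate 2 of either genotype. At E9.5 all 8 were above it in replicate 2 of the controls and replicate 3 of the mutants, and below it in replicate 2 of the mutants. The widest swing was in homozygous E9.0 embryos, where the mean deviation was 0.80 (log2) in replicate 3 and -0.56 in replicate 2. Homozygous E9.0 replicate 3 also stood apart in sex-linked genes, with Xist at 453 CPM and the summed Y-linked genes Ddx3y, Eif2s3y, Kdm5d and Uty at 0.068 CPM, against 95.9 to 178 CPM of Y-linked genes in the other 5 E9.0 libraries. Among those 5, Xist was at 174 to 280 CPM in 3 libraries and at no more than 0.22 CPM in replicate 1 of either genotype. At E9.5 the Y-linked genes were at 0 in homozygous replicate 1 and at 54.5 to 215 CPM in the other 5 libraries. Xist at E9.5 was at 0.18 CPM in heterozygous replicate 1, at 0.061 CPM in homozygous replicate 2 and at 238 to 382 CPM in the rest. Alas2 and Gata1 are X-linked, and the part of sex composition in the members' values was not tested. Over the 12 libraries, after subtracting group means, Pearson's r between pairs of members had a median of 0.924 (28 pairs, 0.797 to 0.989). Without homozygous E9.0 replicates 2 and 3 the median was 0.889 and the lowest 0.490. Members of a pair share each library's depth and scaling factor, so these values describe the libraries and carry no test.

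**Figure D4:**
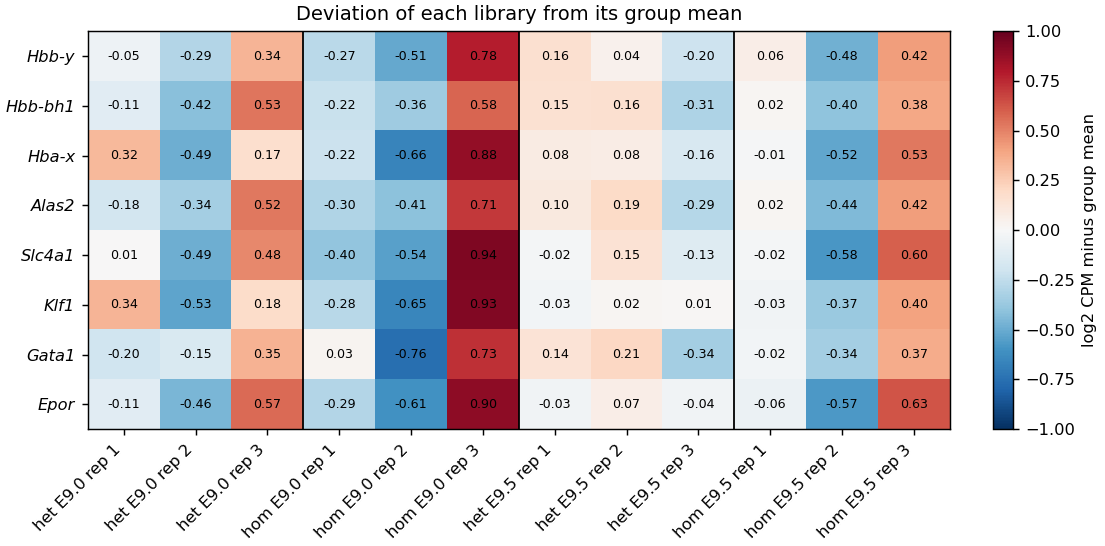
Deviation of log2 CPM from the group mean for the 8 tested members (rows) in the 12 libraries (columns); red is above and blue below the mean, with the value in each cell. In 7 of the 12 columns all 8 genes have the same sign, with the strongest colours in homozygous E9.0 replicates 2 and 3, and the other 5 columns are mixed.

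By the same measure, the 10 genes outside the members most like their mean pattern, among 12026 with at least 50 counts on average, were Ank1 (r = 0.979), Mgst3 (0.973), Dhrs13 (0.958), Cited4 (0.954), Hemgn (0.953), Sptb (0.952), Ube2l6 (0.952), Slc30a10 (0.944), Add2 (0.940) and Abcb10 (0.938). Ank1 and Sptb encode ankyrin and beta spectrin of the red cell skeleton, Add2 encodes beta adducin, and Abcb10 is a mitochondrial transporter of erythroid cells. Of the 10, 5 stand in the erythroid lists described next. In comparison, each member's r with the mean of the others was between 0.898 (Gata1) and 0.987 (Slc4a1).

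The wider erythroid programme was described with 7 lists, some of which hold the members themselves. Heart muscle, ganglion neuron and neural crest markers also changed with stage, and the part of such cells in the values of list genes was not tested. Over all genes tested in heterozygous embryos, 19.2% were called higher and 35.2% in either direction with stage. The red cell membrane and skeleton list moved most evenly: 16 of 17 tested genes rose and 0 fell, with a median of 1.53, led by the blood group genes Rhd (2.79, SE 0.34, adjusted p = 1.288e-05) and Kel (2.25, SE 0.44, adjusted p = 0.00177). Of 9 heme synthesis genes 7 rose and 0 fell (median 0.62), with Alas2 and then Fech, the enzyme that inserts iron (0.92, SE 0.10, adjusted p = 6.535e-06), in front. Red cell enzymes and cytosolic proteins rose in 9 of 11 (median 0.42), led by Tmod1, which caps actin filaments (2.88, SE 0.24), and Pklr, the red cell pyruvate kinase (2.80, SE 0.34). In the globin list 4 of 5 tested genes rose, with Hbb-bh2 not passing.

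Signalling and regulatory lists were mixed. Of 18 transcription factors 11 rose and 3 fell (median 0.52). The largest rise was that of Bcl11a (4.03, SE 0.57), which went from 1 to 4 counts in the heterozygous E9.0 libraries to 42 to 70 at E9.5, followed by Klf1, and the largest falls were those of Klf3 (-0.46, SE 0.08) and Lmo2 (-0.43, SE 0.13). With 1 library left out, the Bcl11a rise ranged from 3.53 to 5.14. Of 11 iron and heme transport genes 4 rose, with Steap3 (1.51, SE 0.27) and Abcb10 (1.15, SE 0.17) first, and Slc11a2, an iron importer, fell (-0.29, SE 0.06). Of 11 genes of erythropoietin and Kit signalling 4 rose, like the transport genes a share nearer to that of all genes, led by Epor and by Cish, a feedback inhibitor (0.63, SE 0.21, adjusted p = 0.0301), and Kit, the stem cell factor receptor, fell (-0.64, SE 0.08). With total counts only, the median of all genes stood at 0.38. Slc11a2 was then at 0.08, and Klf3 (-0.08), Lmo2 (-0.05) and Kit (-0.28) were no longer called, each of the 4 below that median. The Cish call was kept in 2 of 6 fits that left out a library and lost without heterozygous E9.0 replicate 2 (adjusted p = 0.148) or 3 (0.0537), or E9.5 replicate 1 (0.0545) or 3 (0.104).

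In homozygous embryos the counts of genes that rose were 16 of 17 for membrane and skeleton, 7 of 9 for heme synthesis, 6 of 11 for enzymes, 10 of 18 for transcription factors, 2 of 11 for iron and heme transport, 3 of 11 for erythropoietin and Kit signalling and 3 of 5 for globins. Falls were called in 2 transcription factors, 1 transport gene and 1 signalling gene. Over all genes tested 19.6% were called higher and the median was 0.015, so the shares for transport and signalling were near the background.

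**Figure D5:**
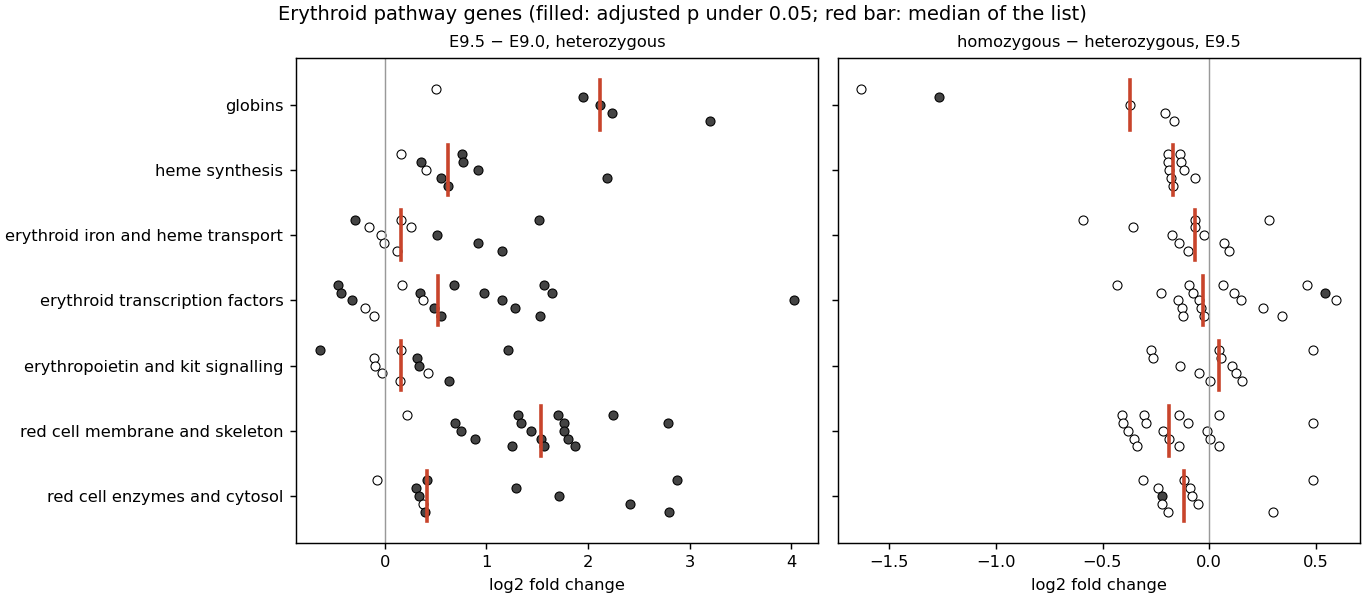
Log2 fold changes of the tested genes of 7 erythroid lists for stage in heterozygous embryos (left) and genotype at E9.5 (right); filled points passed an adjusted p of 0.05 and red bars mark list medians. All 17 points of the membrane list lie above 0 on the left, and on the right 3 points are filled.

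Between the genotypes, 3 genes of these lists were called at E9.5 and 0 at E9.0, where 1.89% and 0.587% of all genes were called. At E9.0 edgeR called 0 genes in each of the 7, as did DESeq2 and limma-voom, with 3 transcription factors, 2 transport genes and 1 enzyme gene at an unadjusted p under 0.05, as 13.3% of all genes had. At E9.5 it called Hbq1b, described above, Lmo2, a bridging factor of the Gata1 complex that endothelium also expresses, and Prdx2, a peroxidase. Lmo2 was at 13.6, 9.30 and 13.7 CPM in heterozygous and at 18.8, 16.1 and 18.5 CPM in homozygous libraries (log2 difference 0.55, SE 0.12, adjusted p = 0.0283). The part of endothelium in this difference was not tested. The call was kept in 3 of 6 fits and lost without heterozygous replicate 2 (adjusted p = 0.0701), homozygous replicate 1 (0.0971) or homozygous replicate 3 (0.106), and also with total counts only (0.161) or with the 6 E9.5 libraries alone (0.113). Prdx2 was 0.22 lower in homozygous embryos (SE 0.06, adjusted p = 0.04996) and lost the call whichever of the 6 libraries was left out (adjusted p from 0.085 to 0.253). In the other 4 lists 0 genes were called at E9.5, with 2 transport genes and 1 gene each of heme synthesis, signalling and membrane at an unadjusted p under 0.05 (13.4% of all genes). In the lists with a called gene an unadjusted p under 0.05 was found for 4 of 11 enzyme genes, 4 of 18 transcription factors and 2 of 5 globins. The difference of the genotype effect between the stages was called in 0 genes of these lists by edgeR and limma-voom. DESeq2 called 1 enzyme gene, and an unadjusted p under 0.05 from edgeR was found for 3 transport genes, 2 transcription factors, 2 enzyme genes and 1 globin (8.6% of all genes).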

How the data were processed

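The authors deposited a table of raw read counts per gene symbol for the 12 libraries. cutadapt, STAR, featureCounts, MultiQC and the mm10 build are named per the submitters' processing notes, without versions, and the strand setting and the treatment of reads matching several genes are not given in the sources used here. Each of the 12 count columns was matched to a library, and 0 columns were left over. Counts were tested with edgeR 4.0.16 (R 4.3.3): genes filtered by group, TMM factors, 1 robust quasi-likelihood fit over the 4 groups, two-sided tests and Benjamini-Hochberg adjustment over 14810 genes, with a threshold of 0.05. Levels are CPM on the TMM-scaled library size, and a prior count of 2 was used for log2 CPM in the pattern comparison. DESeq2 1.42.0 and limma 3.58.1 (voom) served as alternatives. Ratios of raw counts were tested by exact permutation within strata. Lengths and coordinates came from GENCODE M21 and promoters from RefSeq. The fits were tested on simulated data.

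Named were all members, the globins in the table, the 2 largest called rises and falls with stage in heterozygous embryos and each gene called for genotype in the other lists, and the 10 genes most like the members. Members and lists were chosen with earlier results of these data known. The planned ratio of Hba-x to Hba-a1 could not be computed.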

Additional observations from a re-analysis of the deposited data

How the results depend on the processing

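With 3 libraries a group, the genotype differences of the members have wide intervals, and many of their signs depended on single libraries. The exceptions, negative with any 1 library left out, were Hbb-y and Slc4a1 at E9.0 and Hbb-bh1, Klf1, Slc4a1 and Epor at E9.5. Their sizes still depended on single libraries, and some came close to 0. The ranges were -0.78 to -0.039 (Hbb-y) and -0.93 to -0.0026 (Slc4a1) at E9.0. At E9.5 they were -0.58 to -0.19 (Hbb-bh1), -0.65 to -0.25 (Klf1), -0.75 to -0.16 (Slc4a1) and -0.64 to -0.0082 (Epor). The directions of the stage differences of the 8 members and their count of 0 genotype calls held under every alternative run. Away from leaving out libraries, 594 of 625 single-gene values (8 reversed, 17 weaker, 6 stronger) and 70 of 76 main values (5 weaker, 1 moved) kept direction and side of the threshold, or a like count. The 5 weaker main values all came from a block of paired sign flips of the ratios. Its smallest exact p of 0.03125, adjusted over 10 ratio tests, passes only when most of them reach it. Of 552 values with 1 library left out, 46 reversed. With total counts only, the E9.0 genotype differences turned to 0.036 for Hbb-bh1, 0.051 for Alas2, 0.10 for Klf1 and 0.011 for Epor, the differences between the stages to -0.10 for Hbb-y and -0.12 for Hba-x, and Slc11a2 with stage to 0.084; the median of all genes then stood at 0.19, -0.19 and 0.38 in these comparisons, a common shift larger than the sizes of these values. With limma-voom the Gata1 difference at E9.0 was -0.0064. With only the groups compared, 4 members were called for stage in homozygous embryos, where Hba-x (adjusted p = 0.056), Klf1 (0.0511) and Slc4a1 (0.11) lost the call. Over all genes, calls moved from 87 to 216 (DESeq2) or 51 (limma-voom) for genotype at E9.0, from 280 to 448 (DESeq2) or 123 (total counts only) at E9.5, from 10 to 76 (DESeq2) or 5 (limma-voom) for the difference between the stages, and from 5238 to 3326 (total counts only) for stage in homozygous embryos. Leaving out 1 library gave 38 to 86, 133 to 252 and 1 to 16 calls in the first 3 of these, and 4060 to 4759 in the last. The causes were not tested.

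Over all genes tested, samples with the same replicate number did not deviate together (r of 0.030 to 0.109 between genotypes and -0.167 to 0.013 across stages), so the numbers were not taken as pairs, although the 8 members deviated alike in E9.0 replicates 2 and 3 of both genotypes. With a replicate block, 8 members were called for stage in either genotype, with Epor in homozygous embryos passing (adjusted p = 0.00645), and 0 for genotype. As a block of paired sign flips, whose smallest exact p is 0.03125, the ratio differences were 1.25 (Hbb-y to Hbb-bh1), -0.46 (alpha-like to beta-like), -0.30 (Alas2 to beta-like) and -0.47 (Epor to Slc4a1) for stage and 0.08 (Alas2 to beta-like) and 0.16 (Epor to Slc4a1) for genotype, each with an adjusted p of 0.0521.

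Leaving out 1 library at a time gave these ranges for genotype at E9.0: -0.47 to 0.19 for Hbb-bh1, -0.82 to 0.035 for Hba-x, -0.57 to 0.22 for Alas2, -0.73 to 0.23 for Klf1, -0.34 to 0.46 for Gata1 and -0.78 to 0.24 for Epor. At E9.5 they were -0.43 to 0.0043 for Hbb-y, -0.47 to 0.062 for Hba-x, -0.42 to 0.0042 for Alas2 and -0.30 to 0.069 for Gata1. The difference between the stages ranged from -0.16 to 0.57 for Hbb-y, -0.57 to 0.10 for Hbb-bh1, -0.22 to 0.66 for Hba-x, -0.42 to 0.38 for Alas2, -0.66 to 0.30 for Klf1, -0.55 to 0.24 for Gata1, -0.46 to 0.53 for Slc4a1 and -0.51 to 0.52 for Epor. Among ratios, the ranges were -0.11 to 0.070 (alpha-like to beta-like), 0.061 to 0.10 (Alas2 to beta-like), -0.42 to -0.18 (Klf1 to Gata1) and 0.13 to 0.19 (Epor to Slc4a1) for genotype, and -0.0074 to 0.23 (Klf1 to Gata1) for stage. Called members numbered 6 to 8 for stage in either genotype. The stage differences in homozygous embryos ranged over 3.04 to 3.78 (Hbb-y), 1.66 to 2.22 (Hbb-bh1), 1.73 to 2.61 (Hba-x) and 1.89 to 2.56 (Alas2). Those of Klf1, Gata1, Slc4a1 and Epor ranged over 0.99 to 1.94, 0.97 to 1.77, 1.25 to 2.22 and 0.73 to 1.73. In heterozygous embryos Epor ranged from 0.99 to 1.61.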
